A study of Homo sapiens with 8 samples.

Results

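The genes of the EGFR receptor family, EGFR, ERBB2, ERBB3 and ERBB4, were examined for chromatin occupancy by YAP, TAZ and their DNA-binding partners TEAD1 and TEAD4 in HuCCT1 cells, an established line from a human bile duct cancer (cholangiocarcinoma). The peaks were chosen by position: a peak of any of the 5 deposited lists was taken when its centre lay within 100 kb of the hg19 start site of 1 of the 4 genes, and the 4 genes were selected from earlier results of these lists. Of 51828 peaks in all, 36 met this rule, 25 of 38186 in the TEAD1 list, 10 of 12188 in the TEAD4 list, 1 of 847 in the HA-YAP5SA list, and none of 454 in the YAP list or 153 in the TAZ list. The series is a chromatin immunoprecipitation and sequencing (ChIP-seq) study with 8 libraries, all from HuCCT1 and each the only library of its kind: precipitates with antibodies against YAP, TAZ, TEAD1 and TEAD4, a precipitate of HA-tagged YAP5SA, and the input, IgG and GFP libraries, which were not analysed here. YAP5SA is a form of YAP whose serines phosphorylated by the LATS kinases are replaced, so the HA-YAP5SA list describes an introduced, mutated protein. The labels do not say whether the other libraries came from cells that carried it. With 1 library per list, no value below has a replicate check, the sequencing depth is unknown, and intervals cover counting error over peaks only.

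EGFR, ERBB2, ERBB3 and ERBB4 encode receptor tyrosine kinases of the cell surface that signal as pairs. EGFR binds growth factors such as EGF, and ERBB4 binds neuregulins. ERBB3 also binds neuregulins but has little kinase activity of its own, and ERBB2 has no known ligand and acts as the preferred partner of the others. YAP and TAZ are coactivators held back by the Hippo pathway, and they reach DNA mainly through TEAD factors, often at enhancers far from the gene. The EGFR receptors and the Hippo pathway are both studied as growth regulators in biliary cancers.

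EGFR carried most of the peaks. Its start site, at position 55086725 of chromosome 7, had 21 peaks within 100 kb, against 6 at ERBB2 (chromosome 17, start site 37856231), 5 at ERBB3 (chromosome 12, 56473809) and 4 at ERBB4 (chromosome 2, 213403352). TEAD1 gave 14 of the peaks at EGFR, 3 at ERBB2, 5 at ERBB3 and 3 at ERBB4. TEAD4 gave 6 at EGFR, 3 at ERBB2, none at ERBB3 and 1 at ERBB4, and the only HA-YAP5SA peak was at EGFR. Overlapping peaks of different lists were joined into sites, of which EGFR had 15, ERBB2 3, ERBB3 5 and ERBB4 3.

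These counts were read against all 15179 windows of 200 kb laid end to end along chromosomes 1 to 22 and X, which are not centred on genes. A TEAD1 count of 14 or more was found in 0.712% of windows, a count of 5 or more in 20.0% and a count of 3 or more in 38.3%. For TEAD4, 1.50% of windows held 6 peaks or more, 10.3% held 3 or more and 38.9% held at least 1. EGFR was thus far out in the upper tail for both TEAD factors, while the TEAD1 counts at ERBB2, ERBB3 and ERBB4 were common ones. At least 1 HA-YAP5SA peak was found in 4.94% of windows, and 36 windows (0.237%) matched or passed the counts of EGFR for TEAD1, TEAD4 and HA-YAP5SA together. The genes were picked with such counts known, so the percentages describe the loci and test nothing.

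**Figure D1:**
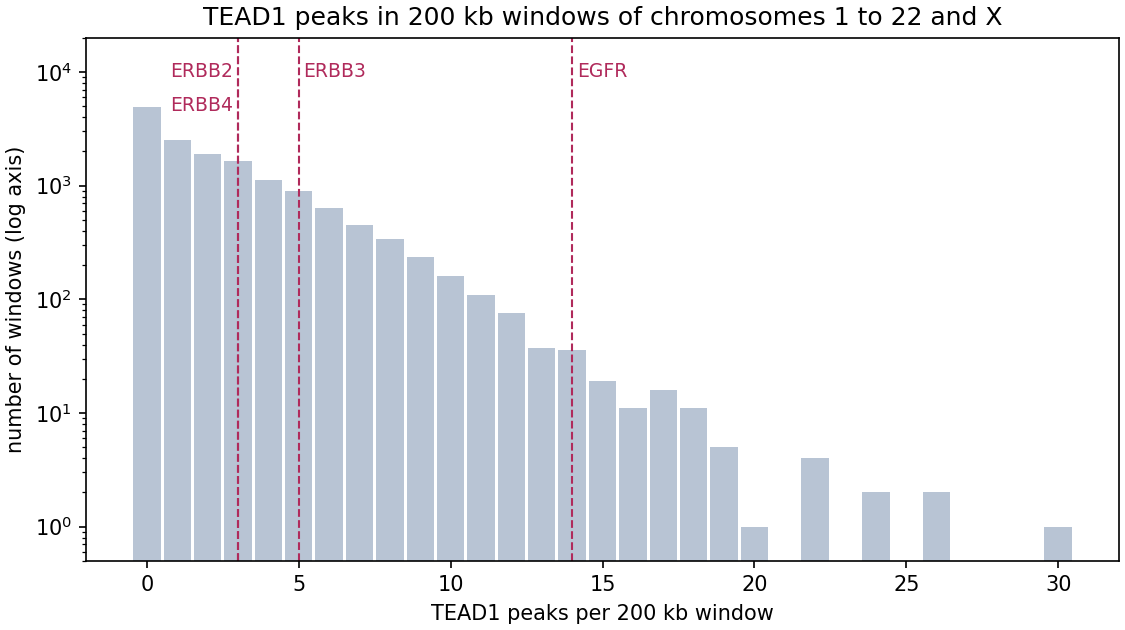
Number of 200 kb windows on chromosomes 1 to 22 and X (vertical log axis) by the number of TEAD1 peaks in them (horizontal axis), with dashed lines at the counts around the 4 start sites. EGFR, at 14, lies in the upper tail, whereas ERBB2 and ERBB4, at 3, and ERBB3, at 5, lie in the body of the distribution.

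At the start sites themselves the 4 genes differed in which TEAD factor was listed. At ERBB2, a TEAD1 peak (37855803 to 37856493, score 349) and a TEAD4 peak (37855993 to 37856372, score 272) both covered the start. At EGFR, a TEAD4 peak covered it (55086451 to 55086757, score 96.2, rank 10339 of 12188) and no TEAD1 peak overlapped it, the nearest TEAD1 centre to the start being 3.06 kb downstream. TEAD4 peaks without TEAD1 were rare in the list as a whole, 353 of 12188 or 2.90%. At ERBB3, a TEAD1 peak covered the start (56473482 to 56474068, score 115, rank 28256 of 38186) without TEAD4. At ERBB4 no peak of any list lay near the start, and the closest was 59.2 kb upstream. The score is the deposited value of each peak, on a scale that is not stated, and ranks run from 1 for the highest score of a list.

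The EGFR promoter is shown because a TEAD4 peak lay over its start site, and a second EGFR window because it alone held the TEAD letters. RefSeq windows on the GRCh38.p14 build, from 250 bases before to 50 after an annotated start, were found for 3 of the 4 genes, EGFR having 2 of them. Each was searched on both strands for GGAATG, the core of the TEAD motif, and for TGANTCA, the AP-1 motif, whose proteins often share enhancers with TEAD. The letters of these motifs do not overlap each other. Matches are in capitals. The windows are on another build than the peaks, which were not placed against them. ERBB2 has more than 1 known start, and the window listed for it was not matched to the start under the peaks, so it is not shown.
EGFR first window, chr7:55018767-55019066, plus strand: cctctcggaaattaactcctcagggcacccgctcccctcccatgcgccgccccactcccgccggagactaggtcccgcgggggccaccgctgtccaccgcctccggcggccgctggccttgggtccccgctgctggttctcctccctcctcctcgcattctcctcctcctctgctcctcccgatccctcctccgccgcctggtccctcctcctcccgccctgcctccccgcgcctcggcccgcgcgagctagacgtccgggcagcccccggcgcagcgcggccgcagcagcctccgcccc
EGFR second window, chr7:55109589-55109888, plus strand: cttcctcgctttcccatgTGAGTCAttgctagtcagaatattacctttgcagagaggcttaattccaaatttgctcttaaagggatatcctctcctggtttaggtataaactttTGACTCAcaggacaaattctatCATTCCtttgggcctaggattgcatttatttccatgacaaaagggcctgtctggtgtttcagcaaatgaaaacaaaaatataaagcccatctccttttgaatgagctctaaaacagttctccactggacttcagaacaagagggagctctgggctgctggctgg
The first EGFR window, 75.3% G and C, held neither motif, nor did the ERBB4 window. The ERBB2 window had 1 AP-1 match, TGATTCA, 222 bases before its own start, and no GGAATG. The second EGFR window, at an internal start of the gene, had CATTCC, the reverse complement of GGAATG, 114 bases before the start, and 2 AP-1 matches 232 and 136 bases before it. Of all 35116 promoter windows in the table, 14.0% held GGAATG and 7.71% held TGANTCA on either strand. A match is a description of the letters and no evidence of binding.

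The strongest site of the family lay upstream of EGFR. A TEAD1 peak at 55034703 to 55035819, centred 51.5 kb before the start, had the highest score of the whole TEAD1 list, 3147. A TEAD4 peak at 55034833 to 55035600 (score 2313) ranked 8 of 12188, and the HA-YAP5SA peak at 55035003 to 55035551 (score 654) ranked 8 of 847. The peaks were nested, HA-YAP5SA within TEAD4 within TEAD1, with widths of 549, 768 and 1117 bp. Their centres lay 16 bp (HA-YAP5SA) and 44.5 bp (TEAD4) from that of TEAD1. Scores at the top of the TEAD1 list were close together, 3146.68 for this peak and 3143.58 for the next, and 8 TEAD1 peaks reached 3100, so the first rank sets it apart from the next by 3.1 units only.

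Only 2 sites in the genome ranked within the first 10 of the TEAD1, TEAD4 and HA-YAP5SA lists at once, this one and a site on chromosome 14. Other sites fell just outside this limit, so the number depends on it. The HA-YAP5SA peaks ranked 5, 9 and 10 had TEAD1 ranks of 4, 16 and 18 and TEAD4 ranks of 19, 6 and 9. The chromosome 14 site also had a YAP peak and the EGFR site had none. Among the 10 highest HA-YAP5SA peaks, 6 met a YAP peak and 4, including that of EGFR, did not. The peak ranked 3, at 10002 of chromosome 5, was among those with YAP and had neither TEAD1 nor TEAD4. The share of all 847 HA-YAP5SA peaks that met YAP was not counted, so whether its lack at EGFR is usual was not determined. Of the 14 TEAD1 peaks at EGFR, 1 had HA-YAP5SA (7.14%, exact 95% interval 0.181 to 33.9%), against 2.06% of all TEAD1 peaks. That interval includes the share of the whole list.

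**Figure D2:**
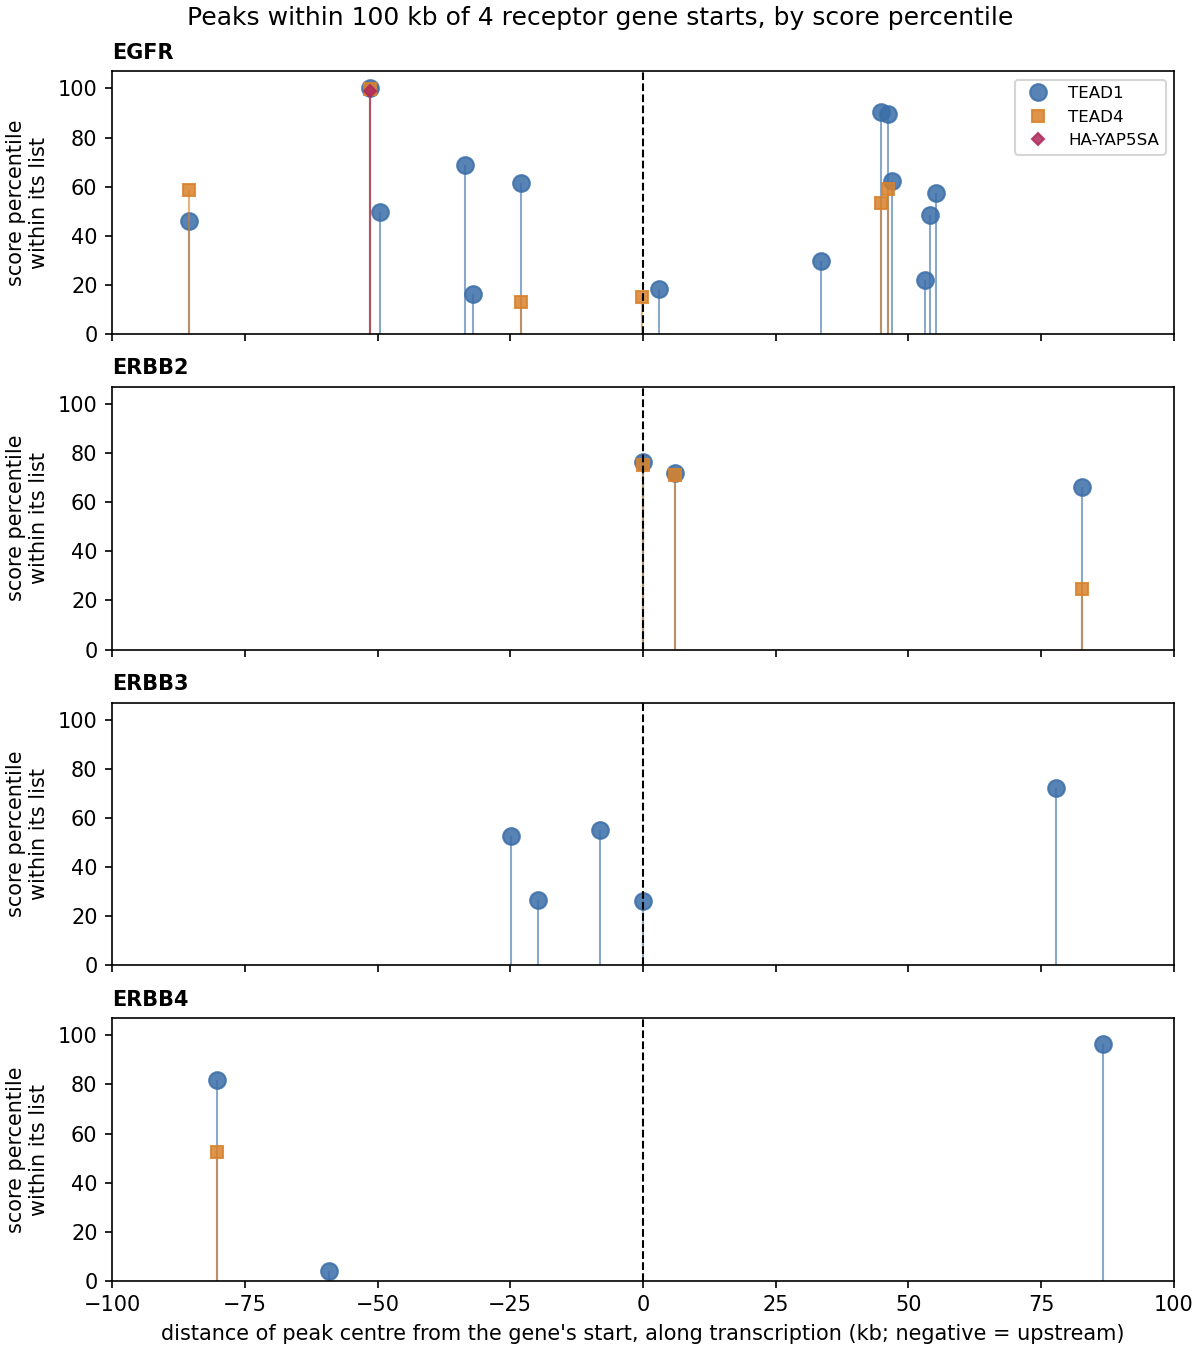
Position of each peak centre relative to the start of EGFR, ERBB2, ERBB3 and ERBB4 (horizontal axis, kb along the direction of transcription) and the percentile of its score within its own list (vertical axis, 100 being the highest). TEAD1, TEAD4 and HA-YAP5SA share the site 51.5 kb upstream of EGFR at the top of the scale, ERBB3 has TEAD1 only, and ERBB4 is empty around its start.

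The other TEAD1 peaks at EGFR were weaker and lay on both sides of the start, 6 of the 14 upstream and 8 downstream. Next in score were a pair 44.8 and 46.1 kb downstream (55131228 to 55131773, score 638, and 55132555 to 55133171, score 613), which ranked 3725 and 3999 of 38186. Each carried TEAD4, with scores of 171 and 191. They lie on the transcribed side of the start, where EGFR has a first intron known to be very long. The next TEAD1 peak, 55133182 to 55133969 (score 234), began 10 bp after the end of the second and had no TEAD4.

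Further TEAD1 peaks at EGFR completed the 10 with the highest scores. The peak 33.6 kb upstream (55052866 to 55053474) had a score of 277 without TEAD4. The peak 22.9 kb upstream (55063543 to 55064109) had a score of 230 and carried a TEAD4 peak of score 93.8. The peaks 55.2 kb downstream (55141658 to 55142216, score 207), 49.6 kb upstream (55036723 to 55037473, score 176) and 54.0 kb downstream (55140463 to 55141075, score 172) had no TEAD4. The farthest upstream, at 85.6 kb (55000875 to 55001414), had a TEAD1 score of 163 (rank 20668 of 38186) and a TEAD4 peak of score 189 (rank 5060 of 12188). The 4 lowest TEAD1 peaks, with scores from 99.97 to 122, had no TEAD4 and included the one 3.06 kb downstream of the start (55089614 to 55089965, score 103), which was singled out after its value was seen. The locus therefore holds 1 peak at the head of the list, 2 more with scores of 613 and 638, and 11 of score 277 or lower, with a median score of 192 against 177 for the whole TEAD1 list.

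TEAD1 peaks at EGFR lay close to each other. Of the 14, 10 had another TEAD1 centre within 5 kb, a distance chosen after the positions were seen, in pairs 51.5 and 49.6 kb and 33.6 and 32.1 kb upstream and in groups of 3 from 44.8 to 46.9 kb and from 53.1 to 55.2 kb downstream. None of the TEAD1 peaks at ERBB2, ERBB3 or ERBB4 had such a neighbour, and 30.8% of all TEAD1 peaks did. That absence depends on the limit. The ERBB3 peaks 24.9 and 19.8 kb upstream lay only slightly more than 5 kb apart. The ERBB2 peaks 0.083 kb upstream and 6.08 kb downstream were not much farther from each other. A locus with more peaks has closer peaks, so the closeness at EGFR is not separate from the count.

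At ERBB2, within 100 kb, each of the 3 TEAD1 peaks carried TEAD4 and each TEAD4 peak lay on TEAD1. Besides the start site, the pairs were 6.08 kb downstream (TEAD1 37861853 to 37862774, score 304; TEAD4 37861961 to 37862413, score 247) and 82.7 kb downstream (TEAD1 37938633 to 37939214, score 258; TEAD4 37938699 to 37939008, score 109). Their TEAD1 scores were moderate, within the top 23.5 to 33.9% of the list. In the whole TEAD1 list 30.6% of peaks carried TEAD4, and of the 3965 peaks with scores in the range seen at ERBB2 42.5% did. With 3 peaks the interval for ERBB2 runs from 29.2 to 100% and includes both shares. Within 200 kb, ERBB2 had 5 TEAD1 peaks, of which 60.0% carried TEAD4. In the RefSeq gene order PGAP3 and MIEN1 are the protein-coding neighbours of ERBB2, and the pair 82.7 kb downstream may lie nearer to another gene, which was not determined on hg19.

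ERBB3 showed the opposite pattern, TEAD1 without TEAD4. Upstream of the start site, TEAD1 peaks lay at 24.9 kb (56448470 to 56449275, score 188), 19.8 kb (56453883 to 56454202, score 116) and 8.11 kb (56465375 to 56466033, score 198). The highest TEAD1 score, 304, belonged to a peak 77.9 kb downstream (56551380 to 56551941), at rank 10650. In the RefSeq gene order RPS26 and PA2G4 are the protein-coding neighbours of ERBB3. The peak 77.9 kb downstream may lie nearer to another gene, which was not determined on hg19. The nearest TEAD4 centre to any of these 5 peaks was 66.3 kb away. A count of 0 among 5 peaks allows a share of up to 60.0%, and 17.3% of the 17609 TEAD1 peaks in the same score range carried TEAD4, so most TEAD1 peaks with such scores lack TEAD4. The highest ERBB3 peak and the middle ERBB2 peak, with TEAD1 scores of 304.46 and 303.55, ranked 10650 and 10697 and differed in TEAD4.

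ERBB4, which is transcribed from the minus strand, had 3 TEAD1 peaks, spread from near the bottom of the list to near its top. Its strongest TEAD1 peak, 213316362 to 213317015, lay 86.7 kb downstream of the start, within the gene's very long transcribed region, with a score of 1010 and rank 1402 of 38186. It carried no TEAD4, and the nearest TEAD4 centre was 167 kb away. Among the 1402 TEAD1 peaks with this rank or a higher one, 9 (0.642%) lacked TEAD4, the ERBB4 peak included. That limit was set at the peak's own rank, so it was compared only with peaks of equal or higher score. In the highest decile of the TEAD1 list 97.0% carried TEAD4. A peak 80.3 kb upstream (213483373 to 213483859, score 424) carried TEAD4 (213483442 to 213483793, score 169), and a peak 59.2 kb upstream (213462378 to 213462747, score 84.5) was near the lower end of the TEAD1 list. At ERBB4 the peak of middle score therefore had TEAD4, and the highest and the lowest had none.

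**Figure D3:**
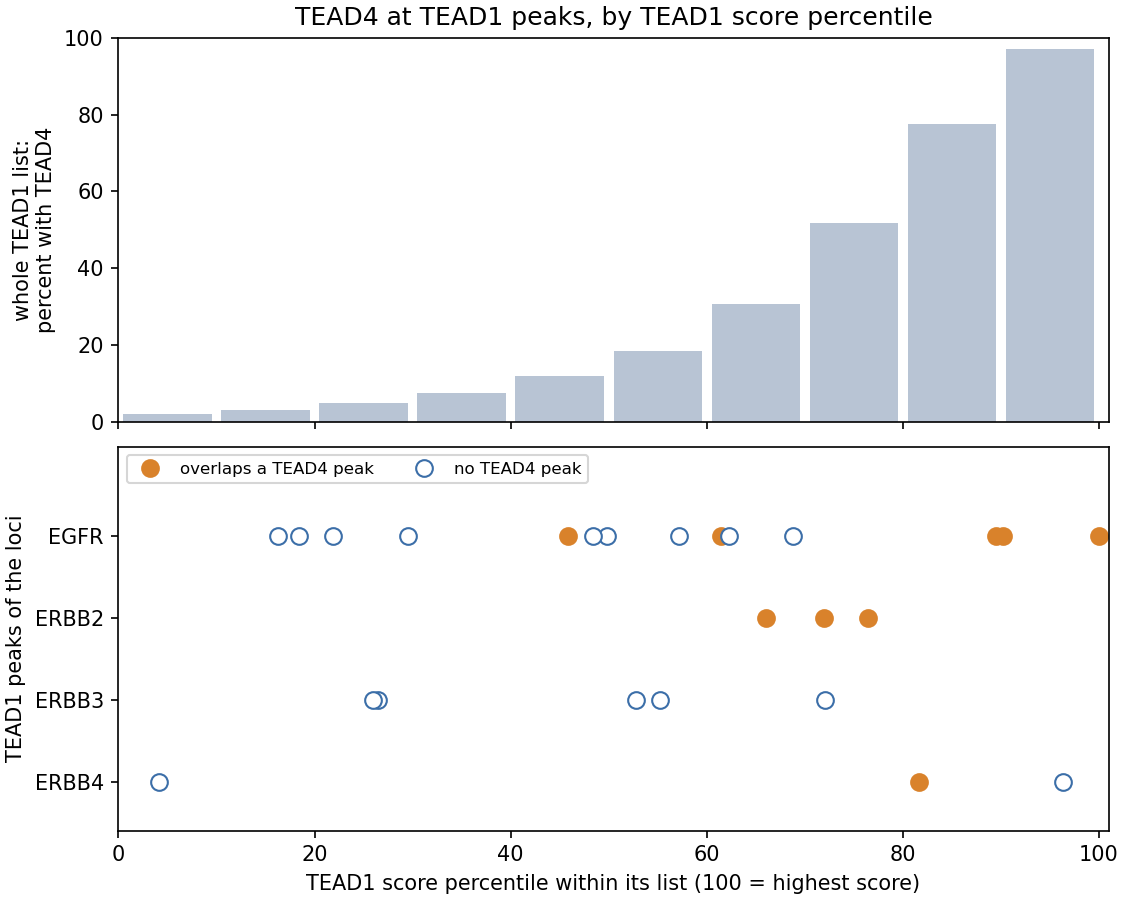
Upper panel, percent of TEAD1 peaks that overlap TEAD4 in each decile of the TEAD1 list (horizontal axis, score percentile), which goes from 2.2 to 97.0%. Lower panel, the 25 TEAD1 peaks of the 4 loci at their own percentile, filled where TEAD4 overlapped; the ERBB4 peak near the upper end is open although almost all TEAD1 peaks there carry TEAD4.

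Over the 4 loci, 9 of the 25 TEAD1 peaks carried TEAD4. At EGFR these were 5 of 14 (35.7%, interval 12.8 to 64.9%) and at ERBB4 1 of 3, both with intervals that include the 30.6% of the whole list. Among the 7 EGFR peaks at or above the median TEAD1 score the share was 57.1%. In the whole list the share also rose with score, from 18.6% in decile 6 to 97.0% in decile 10. It was 30.6% in decile 7 and 51.9% in decile 8, so only deciles 8 to 10 were clearly above 30.6%. The share over all peaks above the median was not counted. No test of a difference between loci was made, since the peaks of 1 library are not replicates. At the 9 shared sites the TEAD4 peak lay wholly within the TEAD1 peak each time, and the centres were 1.5 to 126.5 bp apart, with a median of 34.5 bp. Neither was counted over the 11668 TEAD1 peaks with TEAD4 in the whole list. The nesting is therefore not shown to be particular to these loci. The TEAD1 peak was the wider one by construction of that nesting, and median widths over the whole lists were 552 bp for TEAD1 and 352 bp for TEAD4.

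**Figure D4:**
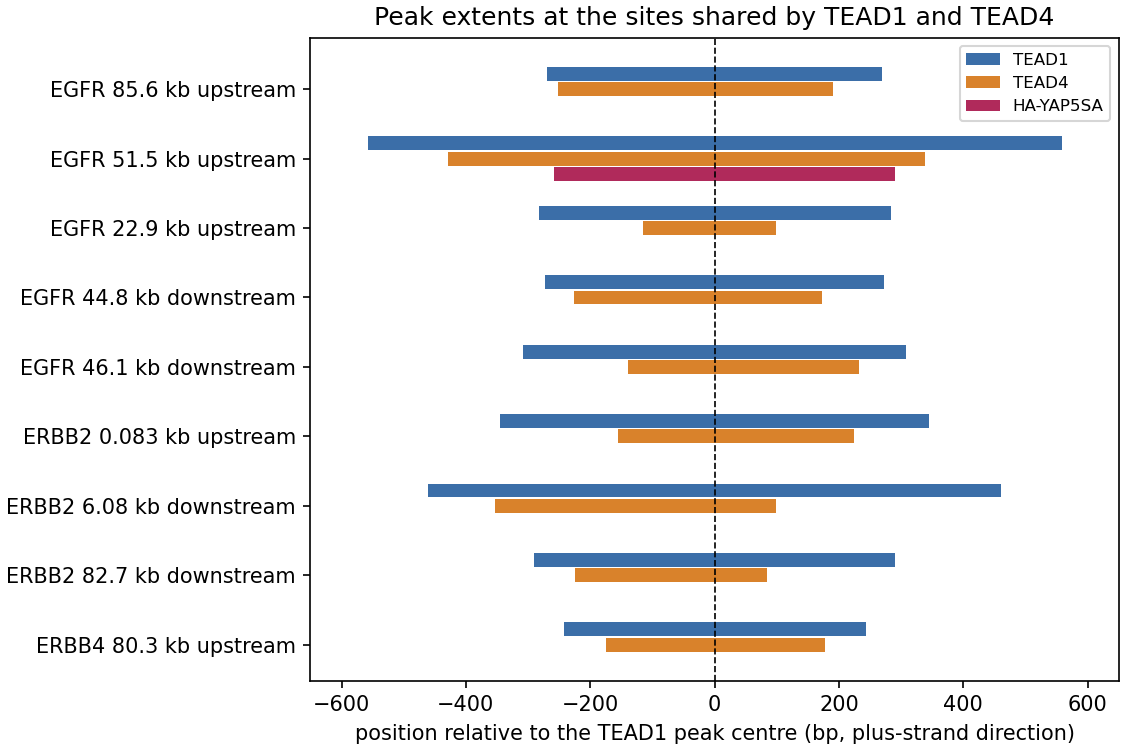
Extents of the peaks at the 9 sites shared by TEAD1 and TEAD4 (bars), in bp from the centre of the TEAD1 peak along the plus strand (horizontal axis). Each TEAD4 bar lies inside its TEAD1 bar, and the site 51.5 kb upstream of EGFR is the widest and the only one with HA-YAP5SA.

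Neither the YAP nor the TAZ antibody gave a peak within 100 kb of any of the 4 start sites. For YAP, 0 of 454 peaks allows a share of up to 0.661%, and for TAZ 0 of 153 allows up to 1.96%. Both lists are short, and 0.883% of the 200 kb windows held a YAP peak and 0.329% a TAZ peak, so most windows of this size lack both. The nearest YAP peak was 6.6 Mb from the EGFR start, 5.16 Mb from ERBB2, 9.59 Mb from ERBB3 and 0.65 Mb from ERBB4. The nearest HA-YAP5SA peaks to ERBB2, ERBB3 and ERBB4 were 582 kb, 439 kb and 0.65 Mb away. That of ERBB4 (214052876 to 214053265, rank 23 of 847) contained the nearest YAP peak (214053050 to 214053183).

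TEAD1 peaks also lay just outside the limit of 100 kb. At EGFR the peaks on either side of it were 85.6 kb (score 163) and 115 kb (score 143) upstream, and 55.2 kb (score 207) and 102 kb (score 134) downstream. At ERBB2 the outermost TEAD1 peak inside and the nearest outside were 82.7 kb (score 258) and 120 kb (score 345) downstream, at ERBB3 77.9 kb (score 304) and 117 kb (score 203) downstream, and at ERBB4, on opposite sides, 86.7 kb downstream (score 1010) and 108 kb upstream (score 321). The HA-YAP5SA peak of EGFR, at 51.4 kb, fell outside a limit of 50 kb, where 9 TEAD1 peaks of EGFR and none of ERBB4 were left.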

How the data were processed

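Chromatin of HuCCT1 cells was cross-linked with formaldehyde, sonicated and precipitated, per the labels' protocols. Bowtie2 and hg19 are named in the submitters' processing notes. Peak names begin with MACS; its version, threshold and control library are not stated in these sources. Every list comes from 1 library, and the authors deposited a score for each peak, whose scale is not stated, so scores were ranked only within a list. A threshold, control or depth that differed between lists changes how many peaks each holds.

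Starts in the 3 lists without a header were raised by 1, so coordinates count from 1. Samples were grouped by title. Start sites were those of the rule, upstream and downstream follow each gene's strand, and peaks counted as overlapping from 1 bp. No test was made: shares have exact Clopper-Pearson 95% intervals, and backgrounds are whole lists or 200 kb windows. For the YAP and TAZ lists a count of 0 was read as 3. Counting was tested on simulated data. The loci, members and comparisons were chosen with earlier results of these data known. The named peaks are all those of HA-YAP5SA, YAP and TAZ, and of TEAD1 and TEAD4 all where a locus has 10 or fewer, otherwise the 10 highest. Alternatives were other distances, overlap rules, score limits, windows and ranks. Neighbouring genes follow the order of a GRCh38.p14 table, and no hg19 annotation was used. Scripts ran on Python 3.11.15 with SciPy 1.17.1, pandas 2.3.3, NumPy 2.4.6 and matplotlib 3.10.9.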

Additional observations from a re-analysis of the deposited data

How the results depend on the processing

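Without replicates, no result could be recomputed with a library left out, and no paired analysis was possible because each group has 1 library. Peak counts moved with the distance and the score limit. Within 50 kb, EGFR had 9 TEAD1 peaks and 0 HA-YAP5SA peaks (a share of 0% of its TEAD1 peaks), and ERBB4 had 0 TEAD1 and 0 TEAD4 peaks. Within 200 kb, TEAD1 peaks numbered 5 at ERBB2, 9 at ERBB3 and 5 at ERBB4, and ERBB3 had 1 TEAD4 peak. At or above the median score of the list, 7 TEAD1 peaks were left at EGFR and 3 at ERBB3. The share of TEAD1 peaks with TEAD4 went from 100 to 60.0% at ERBB2, from 0 to 11.1% at ERBB3 and from 33.3 to 20.0% at ERBB4 within 200 kb. At the score limit it went to 57.1% at EGFR and 50% at ERBB4, and the share with HA-YAP5SA at EGFR, 7.14% in the report, was 14.3% there and 4.76% within 200 kb. These shares, on few peaks, stayed within their wide intervals. In the whole TEAD1 list the share with TEAD4 also rose with score, from 2.2 to 97.0% over its deciles. With windows lacking TEAD1 left out, as many TEAD1 peaks as at EGFR were found in 1.05% of windows, as at ERBB3 in 29.7%, and as at ERBB2 or ERBB4 in 56.7%. By width instead of score, the highest peaks ranked 702 (TEAD1), 161 (TEAD4) and 19 (HA-YAP5SA) at EGFR, 7883 (TEAD1) and 4969 (TEAD4) at ERBB2, 18053 (TEAD1) at ERBB3, and 10116 (TEAD1) and 6057 (TEAD4) at ERBB4. The cause of these changes beyond the fewer or more peaks counted was not tested. Counts by any base in the window or by starts as deposited (added after the data were seen), the shares with TEAD4 or HA-YAP5SA under both other overlap rules, and the percentages with windows shifted by 100 kb kept within 1.5 times the count or within the interval. Depth, which is unknown, limits what a missing YAP, TAZ or TEAD4 peak can show.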

Other observations

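Beyond the limit of 100 kb, the EGFR region went on to hold high-scoring TEAD1 sites. Between 100 and 250 kb from the EGFR start there were 9 more TEAD1 peaks, of which 4 carried TEAD4, against 30.6% of all TEAD1 peaks. How many TEAD1 peaks other regions of that extent hold was not counted. A TEAD1 peak 114 kb downstream (55200247 to 55200914) had a score of 1370, rank 571 of 38186, and a peak 187 kb upstream (54898580 to 54899897) had a score of 1109, rank 1113. Both overlapped TEAD4, with TEAD4 scores of 320 and 357, and neither overlapped HA-YAP5SA, which had no peak in that range. Both scored above all TEAD1 peaks within 100 kb of the EGFR start except the one 51.5 kb upstream.

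At the same distances ERBB2 had 4 more TEAD1 peaks, 2 with TEAD4, ERBB3 had 7, 2 with TEAD4, and ERBB4 had 4, none with TEAD4. No difference of these few peaks from the 30.6% of all TEAD1 peaks was tested. ERBB2 and ERBB3 had TEAD1 peaks beyond the limit that scored above all those within it. At ERBB2, peaks 214 kb upstream and 230 kb downstream scored 665 and 547, against 349 at most within 100 kb. The highest scores outside and inside were 327 and 304 at ERBB3, and 321 and 1010 at ERBB4. The 2 TEAD4 peaks nearest to ERBB3 lay 144 kb downstream (56617888 to 56618098, score 95.2) and 237 kb upstream (56236641 to 56236956, score 185).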
